A study of Mus musculus with 56 samples.

Results

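Gene expression in the blood of the control mice alone was described here, as 28 of the 56 arrays of a study of the bone-seeking internal emitter 90Sr. The members were the arrays whose titles named a control mouse on day 4, 7, 9, 25 or 30 after injection, with 4 mice on day 4 and 6 mice on each of the other days. All mice were C57BL/6, about 10 to 12 weeks old on receipt, quarantined for 14 days and housed singly behind lead shielding. The control mice received saline vehicle by tail vein, and the mice of the other 28 arrays received the 90Sr solution. Each mouse was bled once, by cardiac puncture after killing, with about 0.4 mL of blood taken into 2 mL of an RNA-stabilizing solution that lyses all cells. A difference between days was therefore a difference between separate mice, which also differed in age by the days elapsed. The labels gave no sex, and no blood was taken before injection.

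Whole blood is a mixture of red cells, platelets and white cells, and its RNA comes mainly from reticulocytes, platelets, lymphocytes, monocytes and neutrophils. Reticulocytes carry so much globin mRNA that it was depleted before labelling. In mouse blood, B and T lymphocytes make up most of the white cells. Expression in blood is known to move with the proportions of these cells, time of day, stress and infection, and with RNA handling. In such a mixture fewer cells of a type and less RNA per cell cannot be told apart.

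Each of the 5 control days had a scan session of its own, and no slide held controls of more than 1 day, so that day and scan session cannot be told apart. Expression was the log2 signal of a probe minus the median of all non-control spots of its array, and a gene was represented by its brightest probe, so that levels were comparable between mice and not between genes. Of 30199 genes on the array, 19560 were detected well enough to be tested, 12250 were well above background on all 28 control arrays, and 7129 on none. The number of genes well above background on every array of a day was 15362 on day 4 and 13072, 13563, 13868 and 13979 on days 7, 9, 25 and 30. Day 4 had fewer arrays to pass. Per array the mean number of spots well above background was 22870 on day 4 and 23250 on day 30 (adjusted p = 0.762 in an exact permutation test). On days 7, 9 and 25 it was 19960, 20670 and 21070 (adjusted p = 0.0571, 0.0476 and 0.0476 against day 4 in that test). The mean log2 array median was 4.131 on day 7, against 4.438 and 4.492 on days 9 and 25 (adjusted p = 0.0476 and 0.0487, same test). The mean log2 signal of the negative-control probes lay between 5.80 and 5.92 on the arrays of days 4 and 30, and between 6.12 and 6.51 on those of days 7, 9 and 25. A spiked-in RNA, E1A_r60_1, lay 11.48 to 11.90 log2 units above the array median on day 4 and 11.95 to 13.38 on day 30, against 8.99 to 9.66, 9.55 to 10.57 and 9.99 to 10.98 on days 7, 9 and 25.

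The tissue label was borne out by its markers. Of 200 genes on the array from 12 lists of blood cell markers, 158 were well above background on all 28 control arrays. Of 37 markers of heart and skeletal muscle, liver, endothelium, and lung, skin and connective tissue, which a cardiac puncture might carry along, 12 were well above background on no array and 4 on all 28. The 4 were *Fgb* and *Apoa2* of liver, *Scgb1a1* of airway and *Kdr* of endothelium. *Alb* of hepatocytes, *Actc1*, *Myl7*, *Pln* and *Ryr2* of heart muscle, and *Cdh5*, *Tek* and *Emcn* of endothelium were not well above background on any control array. Of the 13 heart and skeletal muscle markers, these 4 were so on none and 0 on all 28, so the others were so on some arrays. The same holds for the rest of the 37 markers outside the 12 and the 4. The Y-linked genes *Ddx3y* and *Eif2s3y* were well above background on all 28 arrays, and *Xist* on none.

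**Figure D1:**
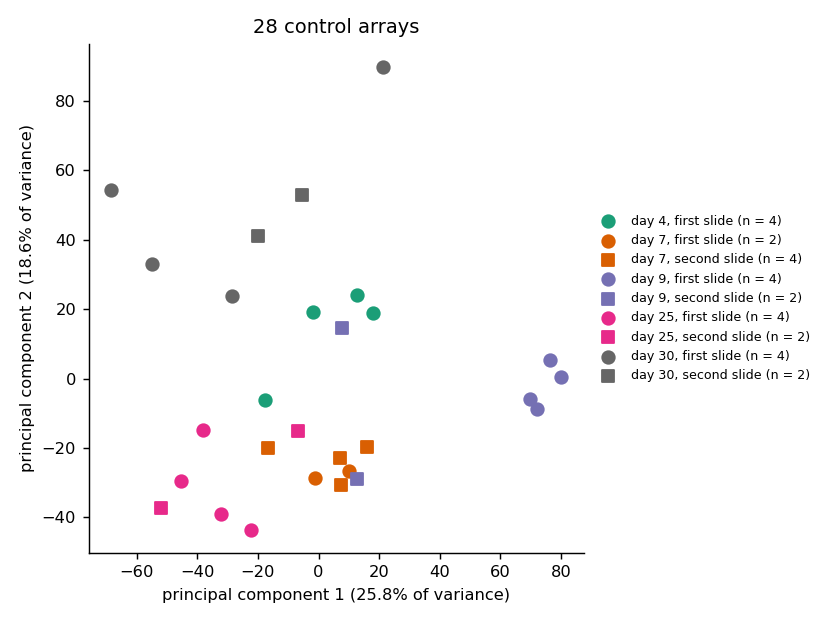
First and second principal components of the 28 control arrays, in arbitrary units, over 19443 genes. Each point is 1 array, coloured by day, with circles for the first slide of a day and squares for the second; 4 arrays of day 9 lie between 69.65 and 80.13 on the first component, apart from the other 24.

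The control arrays separated by day only in part, and 1 slide stood apart within its day. In the plot of principal components, the first component held 25.8% and the second 18.6% of the variance. Day 9 replicates 1 to 4, which shared a slide, lay at 69.65 to 80.13 on the first component, while replicates 5 and 6, on the other slide of that day, lay at 12.75 and 7.83. On the second component day 9 replicate 5 lay at -29.07, among the arrays of day 7 (-30.74 to -19.82). Day 30 replicate 4 had the highest value on the second component, 89.75. Comparing the 2 slides of a day by the same rule as the days called 915 genes (4.68%) on day 9, with 818 lower and 97 higher on the second slide. The same comparison called 18 genes (0.092%) on day 7, 30 (0.153%) on day 25 and 24 (0.123%) on day 30. Counts that rest on day 9 were for this reason also computed without its slide of 4 arrays.

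Across the 5 control days 3529 of 19560 genes (18%) differed at an unadjusted p under 0.001 in limma's moderated F test with the highest and lowest day means at least 2-fold apart, and the largest Benjamini-Hochberg adjusted p among them was 0.00293. The arrays of the highest and the lowest day did not overlap for 2745 of them. Most differences were modest, with a median distance between the highest and lowest day of 2.69-fold among the called genes and 1.66-fold among all genes. A distance of at least 4-fold was reached by 596 called genes and of at least 8-fold by 113. Day 9 was the highest day for 1424 called genes, day 4 for 701, day 30 for 648, day 7 for 566 and day 25 for 190. The lowest day was day 25 for 1355 and day 30 for 1232. Without the day 9 slide of 4 arrays 2548 genes (13%) were called. With another background correction, normexp with an offset of 50, 150 genes were called, and the cause was not tested.

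The widest differences set days 4 and 30 apart from days 7, 9 and 25. *Prss50*, a serine protease known mainly from testis, had log2 levels of 13.22, 12.97, 12.0 and 10.94 in the 4 mice of day 4. On day 7 its lowest, median and highest levels were 5.14, 5.87 and 6.13, on day 9 they were 6.51, 7.45 and 7.75, and on day 25 they were 4.75, 5.50 and 6.10. On day 30 they were 9.93, 11.12 and 12.72. All 10 arrays of days 4 and 30 thus lay above all 18 arrays of the other days. The fall from day 4 to day 7 was 92.3-fold (limma adjusted p = 5.17e-11) and the rise from day 25 to day 30 was 52.2-fold (adjusted p = 4.07e-11).

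*Dpysl4*, which encodes a dihydropyrimidinase-like protein of neurons, followed the same course. Its levels were 7.38, 7.02, 6.48 and 6.47 on day 4, and its lowest, median and highest levels were 2.63, 2.83 and 2.91 on day 7, 2.38, 3.46 and 3.74 on day 9, 1.28, 1.85 and 2.13 on day 25, and 6.45, 7.52 and 7.86 on day 30. Days 4 and 30 overlapped each other and neither overlapped the days between them. *Lrrc16b*, now named *Carmil3*, which regulates actin capping, ranged from 5.04 to 5.49 on day 4 and from 4.74 to 5.09 on day 30, and on days 7, 9 and 25 its highest level was 2.54. *Tcf7l2*, a transcription factor of Wnt signalling, ranged from 5.20 to 5.87 and from 4.87 to 5.95 on days 4 and 30, with no level above 2.87 on the other days.

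Over all tested genes, 134 (0.685%) had every array of days 4 and 30 above every array of days 7, 9 and 25, and 18 (0.092%) had every one below. Among the 20 named genes with the widest distance between days, 13 belonged to the former. They included *Prlh*, prolactin-releasing hormone (27.3-fold between highest and lowest day), *Kcnk15*, a potassium channel subunit (16.4-fold), *Pla2g1b*, a secreted pancreatic phospholipase (16.3-fold), *Enho*, which encodes the peptide adropin (15.0-fold), *Grhl3*, a transcription factor of epidermis (13.9-fold), *Ppyr1*, a receptor of pancreatic polypeptide (13.4-fold), and *Prickle1*, a planar polarity protein (12.5-fold). Most of these genes are better known from other tissues than from blood cells. *C2cd4a* (14.0-fold) and *Ccdc42* (12.4-fold) belonged to them as well. *Dio1*, a thyroid hormone deiodinase (19.8-fold), and *Evx2*, a homeobox gene (19.7-fold), were also highest on day 30, but their day 4 and day 9 arrays overlapped. The same separation of days was seen in the negative-control signal and the spiked-in RNA given above, and their part in these differences was not tested. Days 4 and 30 were not alike throughout, since 603 genes (3.08%) were called between them, 497 of them lower on day 30.

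*Tagln* and *Dctn6* ran the other way. *Tagln*, the smooth-muscle actin-binding protein transgelin, had levels of 7.77, 8.11, 7.80 and 8.23 on day 4, and lowest, median and highest levels of 9.84, 10.36 and 10.59 on day 7, 8.44, 9.82 and 10.19 on day 9, 8.95, 9.23 and 9.86 on day 25, and 5.79, 6.6 and 7.68 on day 30. All arrays of days 4 and 30 were below all others. It was 4.86-fold higher on day 7 than on day 4 (adjusted p = 4.88e-05) and 6.10-fold lower on day 30 than on day 25 (adjusted p = 4.52e-07). *Dctn6*, a subunit of the dynactin complex, rose 4.09-fold from day 4 to day 7 (adjusted p = 5.68e-05) and fell 4.66-fold from day 25 to day 30 (adjusted p = 1.19e-06).

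**Figure D2:**
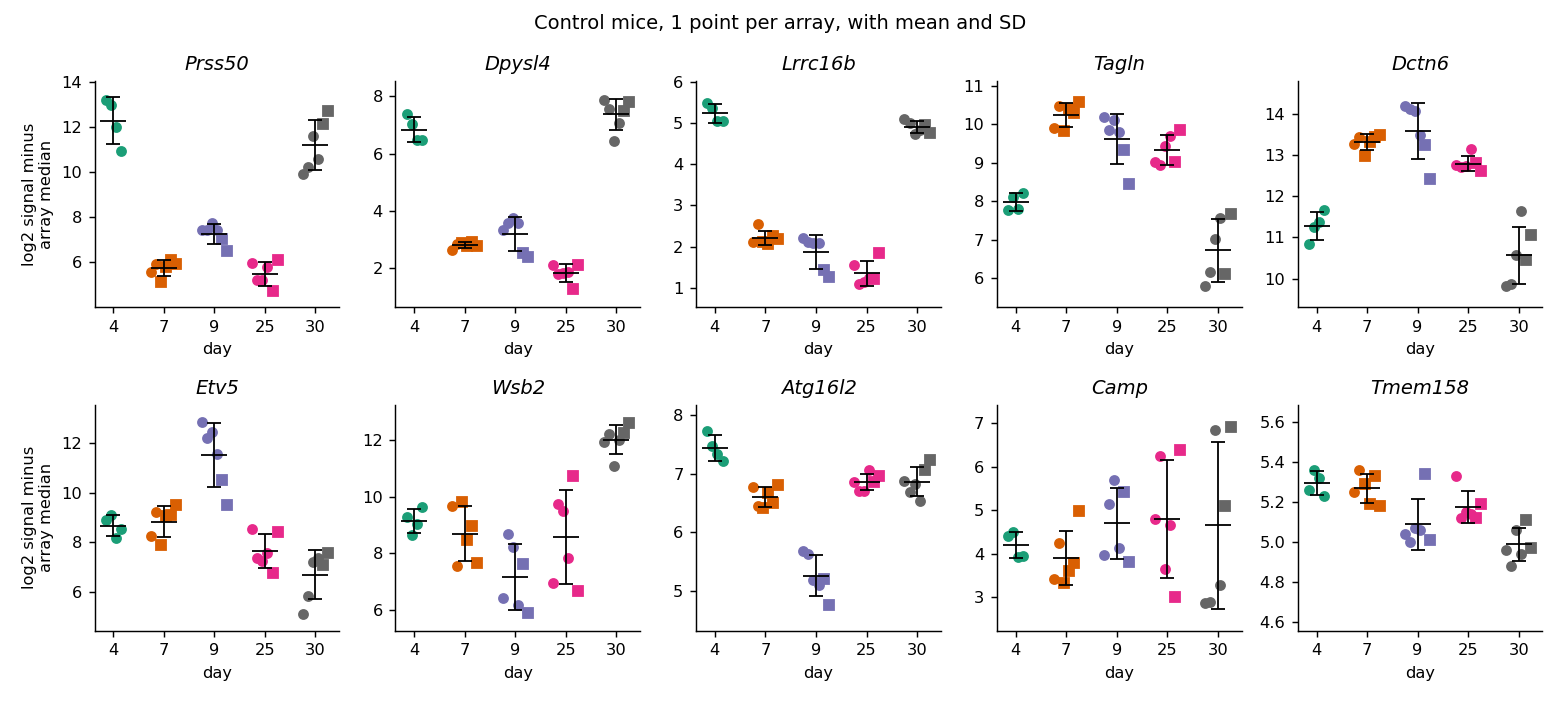
Log2 signal minus the array median for 10 genes in the control mice, by day after injection, with 1 point per array, circles for the first slide of a day and squares for the second, and bars for the mean and SD (n = 4 on day 4, n = 6 on the other days). *Prss50*, *Dpysl4* and *Lrrc16b* are high on days 4 and 30, *Tagln* and *Dctn6* low on them, *Etv5* high and *Atg16l2* low on day 9, *Wsb2* high on day 30, *Camp* spread within days and *Tmem158* level.

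*Wsb2* and *Invs* were highest on day 30 alone. *Wsb2*, a SOCS-box protein of a ubiquitin ligase, had levels of 9.28, 8.63, 9.02 and 9.65 on day 4, and its lowest, median and highest levels were 7.55, 8.72 and 9.82 on day 7, 5.89, 7.02 and 8.68 on day 9, 6.65, 8.67 and 10.73 on day 25, and 11.09, 12.10 and 12.62 on day 30. Day 30 did not overlap any other day, and the rise from day 25 was 11.0-fold (limma adjusted p = 0.000102). *Invs*, inversin, a protein of the primary cilium, lay between 5.35 and 7.6 on day 30 and reached at most 3.88 on the other days, and it was 15.0-fold higher on day 30 than on day 25 (adjusted p = 1.91e-09).

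**Figure D3:**
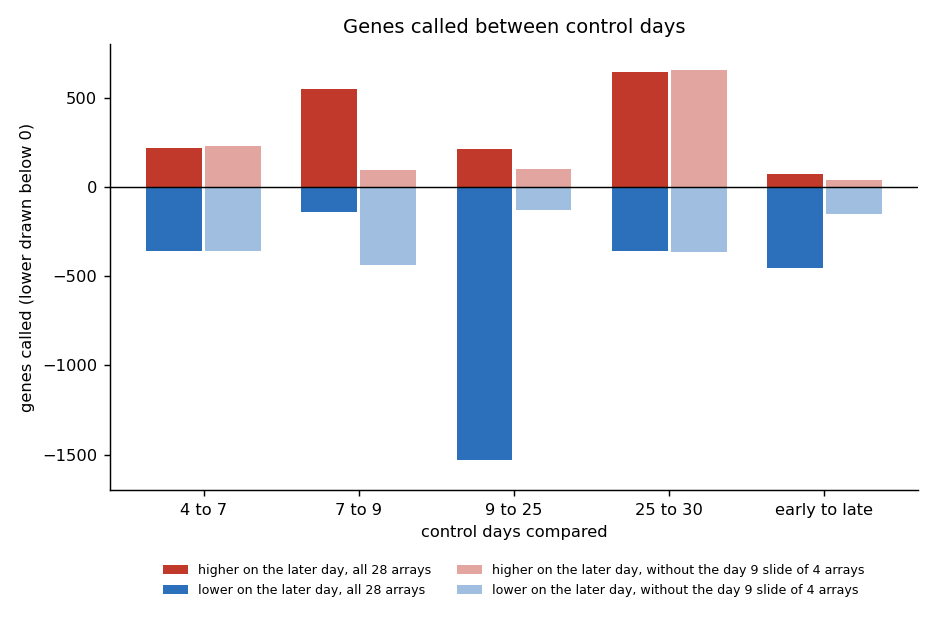
Number of genes called higher (above 0) and lower (below 0) on the later of 2 control days, or on days 25 and 30 against days 4, 7 and 9, over all 28 arrays (dark) and without the day 9 slide of 4 arrays (pale). Of the comparisons with day 9, the 1739 calls from day 9 to day 25 became 227 without that slide.

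Between neighbouring days, 575 genes (2.94%) were called from day 4 to day 7, of which 216 (1.1%) were higher and 359 (1.84%) lower on the later day. From day 7 to day 9, 688 genes (3.52%) were called, with 547 (2.8%) higher and 141 (0.721%) lower. From day 9 to day 25, 1739 (8.89%) were called, with 212 (1.08%) higher and 1527 (7.81%) lower, and from day 25 to day 30, 1003 (5.13%), with 641 (3.28%) higher and 362 (1.85%) lower. The balance depended on the scaling of the arrays and on the minimum fold. Without a minimum fold, 28.4, 47.6 and 33.4% of the called genes were higher from day 7 to day 9, day 9 to day 25 and day 25 to day 30, in place of 79.5, 12.2 and 63.9%. The share of called genes that were higher was 79.5% from day 7 to day 9 with the array median and 95% with the 75th percentile, and 63.9% and 83.7% from day 25 to day 30. The median of all genes moved with the median scaling by -0.265, 0.264 and -0.169 log2 units from day 7 to day 9, from day 9 to day 25 and from day 25 to day 30, and by -0.085, 0.131 and 0.002 with the 75th percentile. Of the genes called from day 9 to day 25 with all arrays, 143 were still called without the day 9 slide. From day 7 to day 9, 533 genes were called without that slide, of which 18.2% were higher and 101 were called with all arrays too.

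Day 9 held the highest levels of several genes, to a different extent on its 2 slides. *Etv5*, an ETS transcription factor, had levels of 8.91, 9.09, 8.16 and 8.54 on day 4, and lowest, median and highest levels of 7.89, 9.07 and 9.52 on day 7, 9.50, 11.89 and 12.86 on day 9, 6.76, 7.47 and 8.54 on day 25, and 5.13, 7.15 and 7.56 on day 30. Its lowest level on day 9 fell just inside the range of day 7. It was 6.4-fold higher on day 9 than on day 7 (limma adjusted p = 0.000347) and 14.5-fold lower on day 25 than on day 9 (adjusted p = 9.10e-06). Its day 9 levels were 11.58 to 12.86 on the slide of 4 arrays and 9.50 to 10.51 on the slide of 2. *Tango6*, a protein of Golgi organization, lay between 9.60 and 11.35 on day 9 and at 9.41 or less on the other days.

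Other genes that were high on day 9 were called only with its slide of 4 arrays. *Ntrk2*, the receptor of brain-derived neurotrophic factor, and *Sprr1a*, a protein of the cornified envelope, differed across days with adjusted p = 7.43e-05 and 4.20e-05 in limma's F test, and without that slide they did not pass the threshold (adjusted p = 0.00941 and 0.00968). *Peg3as*, *Pax5*, *Ctsg*, *Mrpl2* and *Rpl28*, also highest on day 9, lost the call in the same way, as did *Hdac3*, which was lowest on day 9. *Rhox7*, a reproductive homeobox gene that kept the call, was 3.61-fold higher on day 9 than on day 7 and 6.49-fold lower on day 25 (adjusted p = 0.000402 and 9.30e-06).

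Some genes were low on day 9 in all 6 mice. *Atg16l2*, a paralogue of the autophagy protein Atg16l1, had levels of 7.73, 7.48, 7.34 and 7.21 on day 4, and lowest, median and highest levels of 6.42, 6.59 and 6.81 on day 7, 4.77, 5.20 and 5.68 on day 9, 6.71, 6.86 and 7.06 on day 25, and 6.53, 6.85 and 7.23 on day 30. Day 9 lay below every other day on both slides, and the level was 2.53-fold lower than on day 7 (limma adjusted p = 5.78e-06) and 3.03-fold higher again on day 25 (adjusted p = 3.14e-07). *Kcnk3*, an acid-sensitive potassium channel, was 3.08-fold lower on day 9 than on day 7 and 2.71-fold higher on day 25 than on day 9 (adjusted p = 1.05e-05 and 1.28e-05). In the authors' table *Atg16l2* was represented by another probe, which did not show the low day 9.

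The early and the late days were also compared as 2 pools, which does not test a steady drift from day to day. With days 4, 7 and 9 set against days 25 and 30, 529 genes (2.7%) were called. On the late days 74 (0.378%) were higher and 455 (2.33%) lower. The early and late arrays did not overlap for 7 of them, a stricter condition than between single days, since the pools hold more arrays. Without the day 9 slide 194 genes were called. The receptor genes *Vmn1r25* and *Olfr1368* were the named ones among the 7, at 2.41-fold (limma adjusted p = 1.79e-05) and 2.10-fold (adjusted p = 3.11e-05) lower on days 25 and 30.

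For the steadiest genes the brightest probe differed little between days. *Tmem158* varied between 4.88 and 5.36 over the 28 arrays. *Atp13a1*, a transport ATPase of the endoplasmic reticulum, *Grpel1*, a mitochondrial co-chaperone, *Ctdsp1*, a phosphatase of RNA polymerase II, and *Ermap*, a membrane protein of erythroid cells, had distances of 1.16-, 1.09-, 1.19- and 1.18-fold between the highest and lowest day. None of these 5 was called, and *Tmem158* had the lowest adjusted p, 0.0193. Other probes of *Atp13a1* and *Ermap* were less steady, and that of *Atp13a1*, well above background on all 28 arrays, had day means of 3.98, 4.34, 3.64, 4.33 and 4.51.

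Spread between mice of the same day was widest for *Defa-rs2*, *Mc3r*, *Cdk5rap1*, *Msi1* and *Camp*, and none was called across days. *Camp*, the cathelicidin of neutrophil granules, ranged from 3.93 to 4.49 on day 4, from 3.32 to 4.97 on day 7, from 3.80 to 5.70 on day 9, from 3.01 to 6.39 on day 25 and from 2.87 to 6.91 on day 30. Its day means lay between 3.89 and 4.79, closer together than the mice of day 7, 9, 25 or 30. *Mc3r*, a melanocortin receptor, *Defa-rs2*, a defensin-related gene, and *Cdk5rap1* were low together on several arrays. On day 7 replicate 5 they were 5.75, 3.02 and 1.13, against 8.76, 6.79 and 4.56 on replicate 4 of that day.

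**Figure D4:**
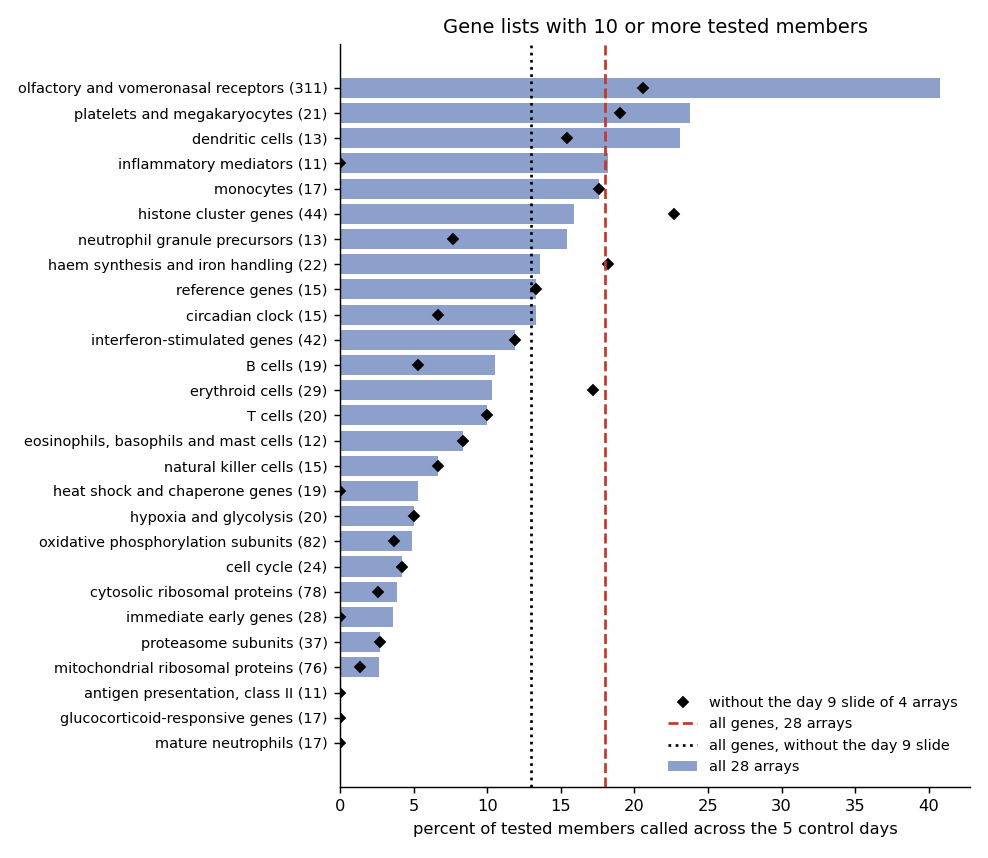
Percentage of the tested members of each gene list that were called across the 5 control days, for lists with at least 10 tested members (number in parentheses). Bars show all 28 arrays and diamonds the fit without the day 9 slide of 4 arrays, with lines at the percentages of all genes, 18% and 13%; only olfactory and vomeronasal receptors exceed 30%.

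Of 191 tested members of the 12 blood cell lists, 23 (12%) were called across days, beside 18% of all genes, with a median distance between the highest and lowest day of 1.65-fold. The share called was below 18% in 10 of the 12 lists. Limma's F test called 0 of 17 markers of mature neutrophils and 0 of 9 of plasma cells.

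Red cell and platelet markers that were called were mostly lowest on day 30, the lowest day for 34.9% of all called genes. Among 29 erythroid genes 3 (10.3%) were called, and among 21 platelet and megakaryocyte genes 5 (23.8%), beside 18% of all genes. All 3 erythroid genes had their lowest mean on day 30. They were *Trim10*, which acts in erythroid differentiation (2.35-fold, limma adjusted p = 0.000220), *Epb4.2*, band 4.2 of the red cell membrane skeleton (2.35-fold, adjusted p = 0.000168), and *Hemgn*, hemogen (2.18-fold, adjusted p = 0.00132). *Trim10* lay between 5.96 and 7.55 on day 30 and between 7.52 and 8.85 on the other days. The 5 platelet and megakaryocyte genes were *Thbs1*, thrombospondin 1 (2.53-fold), *Vwf*, von Willebrand factor (2.29-fold), *Itga2b* (2.13-fold) and *Gp1ba* (2.09-fold), both of platelet surface receptors, and *Selp*, P-selectin (2.02-fold). *Vwf* was lowest on day 9 and the others on day 30. *Hemgn*, *Vwf*, *Itga2b*, *Gp1ba* and *Selp* were not called with the 75th percentile, and *Epb4.2* and *Trim10* were not called with quantile normalization. *Itga2b* was also not called without the day 9 slide, and another probe of *Epb4.2* in the authors' table gave no such difference. From day 25 to day 30 the median of the erythroid list moved by -0.482 and that of the platelet list by -0.659 log2 units, beside -0.169 for all genes. Such falls were not particular to these lists. The median moved by -0.549 for monocytes and -0.608 for eosinophils, basophils and mast cells, but by 0.018 for T cells.

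Lymphocyte markers gave few calls. In the T cell list 2 of 20 were called. *Cd3e*, a chain of the T cell receptor complex, was 8.56, 8.44, 8.05 and 8.04 on day 4, and its lowest, median and highest levels were 7.13, 7.49 and 7.6 on day 7, 6.36, 7.04 and 7.24 on day 9, 6.61, 6.87 and 6.97 on day 25, and 8.19, 8.84 and 10.10 on day 30 (limma adjusted p = 2.93e-08). It was thus high on days 4 and 30, like *Prss50*. *Cd4*, the co-receptor of helper T cells, was highest on day 9 and lowest on day 25 (3.52-fold, adjusted p = 0.00142), with 8.79 to 10.25 on the day 9 slide of 4 arrays and 7.6 and 6.82 on the other 2. Both markers belong to T cells, and their courses were unlike. In the B cell list 2 of 19 were called, *Pax5*, the factor of B cell identity (2.31-fold), and *Cd72*, an inhibitory co-receptor (2.07-fold). In the natural killer list 1 of 15 was called, *Prf1*, perforin (3.35-fold, highest on day 4, lowest on day 25, adjusted p = 1.81e-05).

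*Vcan*, versican of monocytes, *Lyz2*, lysozyme, and *Ms4a4c* were called among 17 monocyte genes, at 5.04-, 2.66- and 2.13-fold, each lowest on day 30. *Ms4a4c* was not called under any other scaling, in the authors' table or without the day 9 slide, and *Lyz2* was not called with quantile normalization, in the authors' table or without day 30 replicate 4. *Vcan* was 4.82, 5.21, 4.37 and 4.75 on day 4, with lowest, median and highest levels of 4.26, 4.94 and 5.27 on day 7, 4.66, 6.07 and 6.13 on day 9, 3.38, 3.91 and 4.53 on day 25, and 2.52, 3.54 and 4.18 on day 30 (limma adjusted p = 2.50e-06). Days 25 and 30 overlapped, and day 30 did not overlap day 4, 7 or 9. *Elane*, neutrophil elastase made in precursors, had a 7.12-fold distance between day 4 and day 25 (adjusted p = 0.00152), with 1 array of day 9 missing and the call lost in 5 of the fits that left out 1 array, and *Ctsg*, cathepsin G, 2.76-fold. *Elane* lay between 9.94 and 11.73 on day 4 and between 7.33 and 8.90 on day 25.

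*Siglech*, a receptor of plasmacytoid dendritic cells, was 6.37, 8.25, 9.42 and 9.18 on day 4, 10.26 to 10.51 on day 7 and 7.34 to 9.18 on day 30. It rose 4.26-fold from day 4 to day 7 (limma adjusted p = 0.000541) and fell 2.54-fold from day 25 to day 30 (adjusted p = 0.0035). A second probe of *Siglech* past the filter had day means of 1.11, 0.51, 1.48, 1.91 and 0.97 and was lowest on day 7. With *Zbtb46*, a factor of classical dendritic cells (2.98-fold), and *Batf3*, a factor of cross-presenting ones (2.05-fold), it made up the 3 called of 13 dendritic cell genes. *Batf3* was close to the threshold, and its call was lost in 21 of the 28 fits that left out 1 array and without the day 9 slide. *Fcer1a*, the IgE receptor chain of basophils and mast cells, was called at 2.45-fold and *Hlf*, a factor of stem cells and also of the clock list, at a distance of at least 1.36-fold, being well above background on 7 arrays, the stricter of the scanner's 2 flags. The call of *Hlf* was lost without the day 9 slide (limma adjusted p = 0.0158), and that of *Fcer1a* in 4 of the fits that left out 1 array.

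Called members numbered 3 of 78 cytosolic ribosomal proteins, 2 of 76 mitochondrial ribosomal proteins, 4 of 82 oxidative phosphorylation subunits and 1 of 37 proteasome subunits (*Psmb7*), beside the 18% of all genes. *Mrps23* of the mitochondrial ribosome was 5.25-fold higher on day 4 than on day 25 (limma adjusted p = 2.76e-07) and *Mrpl2* 4.94-fold higher on day 9 than on day 25 (adjusted p = 9.11e-05). *Atp5j2*, a subunit of ATP synthase, had a 3.77-fold distance, while *Rpl28* and *Rps21* of the cytosolic ribosome had 2.59- and 2.09-fold. *Rps21* was not called with the 75th percentile or quantile normalization. *Atp5j2* and *Rpl28* were not called with the mean of their probes, and the second probes of both, well above background on all 28 arrays, had day means of 8.62 to 9.12 and 9.54 to 10.24. The list median of the cytosolic ribosomal proteins moved by 0.257, -0.480, 0.368 and -0.174 log2 units over the 4 intervals, beside 0.040, -0.265, 0.264 and -0.169 for all genes.

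Among 42 interferon-stimulated genes 5 (11.9%) were called, beside 18% of all genes. They were *Irf7*, *Ifit1*, *Oas3*, *Igtp* and *Sp100*, each lowest on day 30 and between 2.00- and 2.22-fold. Day 30 was the lowest day for 34.9% of all called genes. With the 75th percentile none of these 5 remained called. Another probe of *Sp100*, in the authors' table, turned its direction. *Junb* was the 1 called of 28 immediate early genes and *Hspb1* the 1 called of 19 heat shock genes. Both were lost without the day 9 slide (limma adjusted p = 0.0892 and 0.013), which left 0 of 28 and 0 of 19 called, and *Hspb1* was lost with the 75th percentile and turned direction with normexp. Limma's F test called 0 of 17 glucocorticoid-responsive genes and 0 of 11 class II antigen presentation genes. The circadian list had 2 called of 15, and *Hmox1*, haem oxygenase 1, which degrades haem, was 3.26-fold higher on day 9 than on day 25 (adjusted p = 4.21e-05), though not called with the mean of its probes. Of 44 histone cluster genes 7 were called, and *Hist1h1t*, a testis-specific linker histone, had the widest distance (4.70-fold).

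The genes commonly taken as references varied as well. *Actb* had a distance of 1.31-fold between days, *Gapdh* 1.63-fold and *B2m* 1.98-fold, none of them called. Of 15 reference genes 2 (13.3%) were called, beside 18% of all genes. Other probes of *Gapdh*, well above background on all 28 arrays, were wider or narrower. Day means ran from 4.76 to 5.95 on the widest and from 8.96 to 9.43 on the narrowest. *Ywhaz* (2.09-fold, limma adjusted p = 3.97e-05) was called, lowest on day 30, and lost the call with the 75th percentile. *Ywhaz* was represented by another probe in the authors' table, which turned its direction. A further probe of *Ywhaz*, well above background on all 28 arrays, had day means of 5.04, 4.87, 4.45, 4.83 and 3.81. It was lowest on day 30, like the brightest probe.

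Olfactory and vomeronasal receptor genes had the highest share called among lists of at least 10 tested members with all arrays, but not without the day 9 slide. The array held 1329 such genes, of which 311 could be tested. Calls across days were made for 127 (40.8%), with a median distance of 2.37-fold. From day 7 to day 9, 44 of the 311 were called higher and 0 lower in limma's contrasts, beside 2.8% and 0.721% of all genes, and from day 9 to day 25, 98 were called lower and 2 higher, beside 7.81% and 1.08%. Without the day 9 slide of 4 arrays these counts were 5 higher and 9 lower from day 7 to day 9, and 5 lower and 1 higher from day 9 to day 25. Across days 64 of the 311 (20.6%) were then called, beside 13% of all genes and 22.7% of the histone cluster genes. *Olfr1222*, for example, had day means of 1.11, 2.75, 4.14, 2.52 and 2.23. Only 81 of these receptor genes were well above background on all 28 arrays and 668 were so on none.

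**Figure D5:**
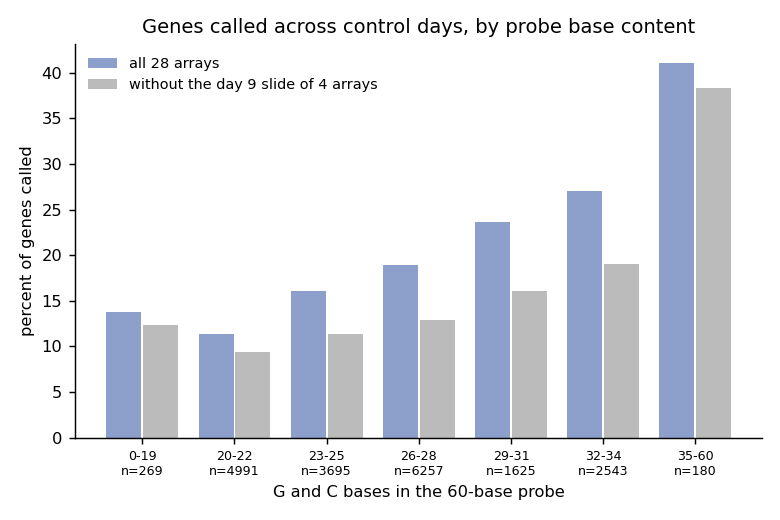
Percentage of tested genes called across the 5 control days by the number of G and C bases in their 60-base probe, with the number of genes tested, over all 28 arrays and without the day 9 slide of 4 arrays. The share is 13.8% at 19 or fewer bases, 11.4% at 20 to 22 and 41.1% at 35 or more, and without the slide 12.3%, 9.4% and 38.3%.

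The base composition of the probes differed between the genes called and the rest. This was looked at after the values were seen and is given as a description. Of the genes whose 60-base probe held 19 or fewer G or C bases, 13.8% were called, and of those with 20 to 22, 11.4%. The share was 16.1, 18.9, 23.6, 27.0 and 41.1% in the bins from 23 to 25 up to 35 or more. Among genes well above background on all 28 arrays it was 12.8% at 19 or fewer bases, 9.31% at 20 to 22 and 43.0% at 35 or more. Genes highest on different days had different probes, with a mean of 28.5 G and C bases for day 4, 28.1 for day 30 and 23.5 for day 25, against 25.9 for all tested genes. Genes highest on day 9 had a mean of 33.6 C and T bases, against 30.0 for all. Split by mean signal into 5 sets of equal size, 15.6 to 21.9% were called.

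Short repeats that were common in the probes of each day's genes are shown in the stretches of 30 bases below, to let the base content be read beside the values. They were read 5′ to 3′ as the array files list the probes, and the capitals mark the 6-base motif. Motifs and probes were picked after the values were seen. Coordinates of the whole probe are those of the files, in mouse build mm9, and the exon or UTR they fall in was not determined here.
Mirg, highest on day 4, motif CTGCTG, chr12:110968992-110969051, plus strand: gggcttcccgtcCTGCTGttcggctctgga
Lrp5, highest on day 4, motif CTGCTG, chr19:3584971-3585030, minus strand: gtccacccggccCTGCTGcctccctgtaaa
F10, highest on day 7, motif GAAGAA, chr8:13056223-13056290, plus strand: aaaggaaggaaggaaggaagGAAGAAagaa
Nos3, highest on day 9, motif TCTCTC, chr5:23890038-23890097, plus strand: actccctttaacTCTCTCtctggagtatct
Ehmt1, highest on day 25, motif GTGTGT, chr2:24646395-24646454, minus strand: GTGTGTgtgtgaGTGTGTgtgactcttcta
Ccdc138, highest on day 25, motif GTGTGT, chr10:58038617-58038676, plus strand: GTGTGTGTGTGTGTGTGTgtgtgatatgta
Rhbdl2, highest on day 30, motif GAGGGA, chr4:123491569-123491628, plus strand: ctgccctgagaaGAGGGAggaagcctggag

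These genes were picked as highest on the named day, so their order of days is no result. *Mirg*, a non-coding RNA of an imprinted miRNA cluster, had day means of 12.01, 9.52, 8.81, 8.63 and 11.90 in the order of the days (10.4-fold, limma adjusted p = 1.39e-09). *F10*, coagulation factor X, had 6.36, 8.33, 7.23, 7.16 and 7.01 (3.90-fold, adjusted p = 5.72e-05), and *Nos3*, endothelial nitric oxide synthase, had 5.62, 5.58, 6.19, 5.52 and 3.61 (6.02-fold, adjusted p = 1.15e-05). *Ehmt1*, a histone H3 methyltransferase, had 6.15, 6.58, 6.91, 6.92 and 4.81, with nearly the same mean on days 9 and 25 and a difference of 0.13 log2 units in the authors' table, and *Rhbdl2*, a rhomboid protease, had 2.25, 1.71, 1.31, 1.15 and 4.57 (10.8-fold, adjusted p = 9.17e-07).

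CTGCTG was in 3.48% of tested probes, in 9.42% of those of genes highest on day 4 and in 8.5% of those highest on day 9, while its reverse complement was in 2.33%, 2.43% and 1.54%. GTGTGT was in 2.92% of all and in 22.1% of those highest on day 25, and ACACAC in 2.15% and 0.526%. GAAGAA was in 4.99% of all, in 14.3% for day 7 and in 9.1% for day 30, and TTCTTC in 2.8% of all and 1.41% for day 7. TCTCTC was in 2.33% of all, in 7.23% for day 9 and in 6.7% for day 4, and GAGAGA in 2.59% of all and 1.33% for day 9. GAGGGA was in 1.3% of all and 4.48% for day 30, and TCCCTC in 1.93% and 3.09%. Several motifs were thus common in the probes of more than 1 day. Motifs overlap within a repeat and are descriptions of the probes, not binding sites.

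Other probes of the called genes were compared with the brightest one. Of 587 called genes with a further probe past the filter, 132 (22.5%) had it called too, and of 3516 not called, 517 (14.7%). *Prss50* had a second probe that was well above background on 5 arrays, with day means of -0.65, -1.18, -0.43, -1.41 and -0.87. That of *Wsb2* was well above background on all 28, with day means of 2.36, 2.59, 1.92, 2.29 and 2.13, and that of *Dctn6* likewise, with 5.25, 5.16, 4.93, 5.33 and 4.8. In *Wsb2* and *Dctn6* the day means of the second probe lay within 1 log2 unit, and in *Prss50* most arrays gave no level well above background. Second probes were well above background on 0 arrays for *Dpysl4*, *Lrrc16b*, *Ccdc42* and *Evx2*. They were so on 1 for *Kcnk15* and *Enho*, and on 2 for *Pla2g1b* and *C2cd4a*. Those of *Tcf7l2* were so on 3 and 8 arrays. Of the further *Dio1* probes, on 12 and 10 arrays, the latter had day means of 1.44, 0.4, -0.02, -0.06 and 0.01, highest on day 4. The second probe of *Ppyr1*, well above background on 20 arrays, had day means of 1.88, 0.69, 0.78, -0.42 and 1.33 and was highest on days 4 and 30, like its first.

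The 90Sr-injected mice of the same days are given as a description, since their arrays partly shared slides and sessions with the controls. Of genes called from day 4 to day 7 in the controls, 99% moved in the same direction in the 90Sr-injected mice, against 69.4% of all genes. The shares were 85.6, 87.7 and 77.2% for the 3 following intervals, against 74.1, 69.0 and 58.8% of all genes, and 33.3% against 53.4% for early against late days. On day 30, 2 of the 6 arrays of 90Sr-injected mice were scanned with the controls and 4 in another session. From day 25 to day 30 the genes called in controls moved the same way in 88.9% for the former and 67.1% for the latter.

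The day 30 levels of the widest genes in the 90Sr-injected mice differed between the 2 sessions. The arrays of each session were also on a slide of their own, on day 30 and on day 7. Slide and session can therefore not be told apart here. *Prss50* was 11.75 and 12.53 on the 2 arrays scanned with the controls and 7.06 to 7.65 on the other 4, *Dpysl4* was 6.96 and 7.55 against 3.40 to 4.29, and *Wsb2* was 11.35 and 12.51 against 1.33 to 5.39. For each of the 3 genes the arrays of the 2 sessions did not overlap, and the former lay within the range of the day 30 controls. *Tagln* (7.9 and 9.5 against 10.3 to 10.74) and *Etv5* (8 and 9.57 against 10.31 to 11.55) did not overlap either. For these genes, however, the former lay above all day 30 controls. On day 7, 2 arrays of 90Sr-injected mice were scanned with the controls and 4 in another session, and these did overlap. *Prss50* was 6.29 to 6.65 against 5.94 to 6.84, and *Dpysl4* 3.39 to 3.74 against 3.35 to 3.89. The spiked-in RNA lay 10.06 to 10.33 log2 units above the array median against 12.24 to 13.12 on day 7. On day 30 it lay at 13.09 to 13.17 against 12.84 to 13.82, which overlapped. The log2 negative-control signal was 6.17 and 6.28 against 6.22 to 6.35 on day 7, and 5.90 and 5.91 against 6.14 to 6.28 on day 30. The part of the scan session or the slide in the day differences of the controls was not tested.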

How the data were processed

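Blood RNA of 28 control and 28 90Sr-injected C57BL/6 mice was depleted of globin, labelled with Cy3 and hybridized by the authors to 1-colour Agilent arrays. The deposited scanner files hold intensity values, and Feature Extraction (version 10.7 per the labels, 11.5.1.1 per the file headers) had subtracted background. The authors' value table holds log2 intensities, of which 14162 entries were non-control probes with 34196 values missing. Its columns differed from the scanner values by a constant per array.

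Here the log2 processed signal of 43020 non-control spots was taken minus the array median, following the median normalization of the methods. Spots flagged as non-uniform were left out and replicate spots averaged. A probe had to be unflagged and significantly above background on more than 75% of the 28 arrays. The brightest probe stood for a gene. Gene names are those of the array design, and 13957 tested genes matched the RefSeq-based reference table by accession, 999 with another symbol. Array number limits the precision.

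Control days were compared with limma 3.58.1 in R 4.3.3, in 1 fit of the 5 control groups, by a moderated F test and contrasts, and called at an unadjusted p under 0.001 and 2-fold, with Benjamini-Hochberg values beside. The p-values set the difference between days against the spread between arrays within a day. That spread holds differences between slides of a day and none between scan sessions. Genes named were the 20 with the widest distance between days, the 3 largest changes each way per interval, the 5 steadiest and 5 most variable, all well above background on 28 arrays and, for changes, without overlap, and the called members and references of 34 gene lists. Not all of them are printed. Where every array of the lowest day was dim, a distance is a lower bound. The members and lists were chosen with earlier results of these data known, and the motifs, printed probes, genes outside this rule, comparisons of slides, of day 4 with day 30 and of sessions, and left-out arrays were chosen after seeing the data. Replicate numbers did not pair the mice. Alternatives covered scaling, background, filters, probe choice, the authors' table, array weights, slide and replicate blocks, thresholds and each array left out. The script for the fits was tested on simulated data. No column of unknown sample was found (0 left out). Scan session as a block could not be fitted, since each control day was its own session.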

Additional observations from a re-analysis of the deposited data

Results flagged for a closer look

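In 36 of 499 groups examined (7.21%), over 95 genes and 5 array measures, 1 array stood apart from the others of its day by Dixon's ratio, and chance gives about 1 in 20. Day 9 replicate 6 accounted for several: its log2 median signal was 4.732, the highest of its day, and it was lowest of its day for *Actb* (12.91), *Gp1ba* (5.68), *Grpel1* (4.97), *Rps21* (10.04), *Selp* (2.60), *Trim10* (7.52) and *Vwf* (6.92). On day 9, *Evx2* was also apart on replicate 1 (5.85) and *Tmem158* on replicate 5 (5.34).

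Day 30 replicate 1 stood apart for *Epb4.2* (4.10), *Itga2b* (5.51), *Selp* (1.79) and *Trim10* (5.96), all lowest, and for *Cdk5rap1* (5.19) and *Hemgn* (8.28), both highest. *Cd4* (8.91) and *Msi1* (9.53) were highest on day 30 replicate 6, and *Thbs1* (7.04) was lowest on replicate 4.

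On day 4, *B2m* (11.52), *Fcer1a* (-0.20) and *Lyz2* (6.12) were lowest on replicate 4, *Selp* (3.43) was lowest on replicate 3, and *Rhbdl2* (3.39) was highest on replicate 1. On day 7, *Atp13a1* (4.79) and *Hdac3* (0.75) were lowest and *Ccdc138* (9.63) highest on replicate 1, *Cd72* (5.09) was highest on replicate 3, *F10* (8) lowest on replicate 4 and *Mc3r* (5.75) lowest on replicate 5. On day 25, *Ermap* (3.74), *Irf7* (7.69) and *Tmem158* (5.33) were highest on replicate 1, *Dpysl4* (1.28) was lowest and *Hemgn* (9.11) highest on replicate 5, and *Pax5* (1) was highest on replicate 6.

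The difference between days itself differed between controls and 90Sr-injected mice, by limma's interaction at p under 0.001 and 2-fold, for 29 genes from day 4 to day 7, 177 from day 7 to day 9, 376 from day 9 to day 25, 654 from day 25 to day 30 and 724 between early and late days. Of the arrays of 90Sr-injected mice, 4 of day 7 and 4 of day 30 were scanned in sessions without controls. The part of the session or the slide was not tested.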

How the results depend on the processing

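Counts are given in the order F test, day 4 to 7, 7 to 9, 9 to 25, 25 to 30 and early to late. Normexp background correction with an offset of 50 left 150, 21, 2, 390, 54 and 175 genes, in place of 3529, 575, 688, 1739, 1003 and 529, and the cause was not tested. Dropping the fold minimum gave 6672, 956, 2813, 4075, 2994 and 2905. Array weights gave 1050, 1415 and 2949 for the first 3 intervals and 951 for early to late. The authors' table gave 345 for early to late. Without the day 9 slide 227 genes were called from day 9 to 25 and 194 from early to late, and without day 30 replicate 4 as well, 260 and 236. Leaving out each array in turn gave 3192 to 3979, 385 to 664, 504 to 959, 1419 to 2264, 842 to 1147 and 410 to 671. The share called higher from day 7 to 9 was 96.5% with the median of detected probes, 90% with quantile normalization and 97.7% in the authors' table. From day 25 to 30 it was 86, 77.5 and 85.7%, and from day 4 to 7 the authors' table gave 26.7% and no filter 52.3%, beside 37.6%. Without the day 9 slide the share from day 9 to 25 was 43.6%, beside 12.2%.

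The replicate number as a block gave 3321, 578, 612, 1666, 976 and 490. Same-numbered arrays of different days did not deviate together (median r = -0.038 over 52 pairs, against 0.004 for other pairs). Scan session as a block was not run, each control day being its own session. Of 82 called genes named, 63 were called under every scaling and 41 under everything but normexp. Directions reversed in the authors' table for *Atg16l2* (-0.19), *Epb4.2* (-0.05), *Siglech* (-0.69), *Sp100* (-0.45) and *Ywhaz* (-0.75), and with normexp for *Hspb1* (-0.05), in log2 units. The authors' table holds another probe for those 5 genes, and for *Hspb1* the cause was not tested.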
